A study of Mus musculus with 2 samples.

Results

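The liver makes most of the proteins that carry hormones, vitamins, metals and lipids in blood plasma. The transcripts of 10 of them, chosen by name, were compared here: Alb, Afp, Ttr, Rbp4, Gc, Ambp, Serpina6, Serpina7, Apoh and Sepp1. All 10 had a probe on the array, 12 probes in total. All 10 were measured on both arrays, meaning well above background, among 13881 such named genes. Liver RNA came from mice of the C57B6J strain that were fed the HFHS diet for 12 weeks. WT mice were compared with CREBH-Tg mice, in which a human cDNA for the active form of CREBH is overexpressed, mainly in the liver. CREBH, the product of Creb3l3, is a transcription factor of the endoplasmic reticulum membrane in hepatocytes that is known for its action on lipid genes and acute phase genes. Each genotype was 1 pool of livers on 1 array. The age and sex of the mice, the number of animals per pool and the promoter that drives the transgene are not given in the sources used here.

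Plasma carriers bind small molecules that dissolve poorly in water or would be lost through the kidney, and they set how much of a hormone or vitamin is free to enter cells. Hepatocytes secrete them constantly, and their genes are classic targets of liver transcription factors such as the HNF4 and C/EBP proteins. Albumin, transthyretin and retinol-binding protein are known as negative acute phase proteins, whose synthesis falls in inflammation, while other carriers such as haptoglobin and hemopexin rise.

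Of the 10 carrier transcripts, Afp stood apart: it was 1.71-fold higher in the CREBH-Tg pool (log2 ratio 0.78). The other 9 lay between log2 ratios of -0.02 (Serpina6) and 0.18 (Serpina7), that is, from 0.983-fold to 1.13-fold. None of the 10 was 2-fold apart, against 1.33% of all 13881 genes. At 1.5-fold, Afp was the 1 member that was higher, against 2.31% of all genes, and no member was 1.5-fold lower, against 2.23%. The median log2 ratio of the 10 was 0.12, beside 0.03 over all genes, and 9 of the 10 lay above 0, as did 56% of all genes. With 1 array per genotype, there is no spread between animals or pools to test a difference with, and differences are given by size. Also, in bulk RNA, fewer cells of a type and less RNA per cell cannot be told apart.

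**Figure D1:**
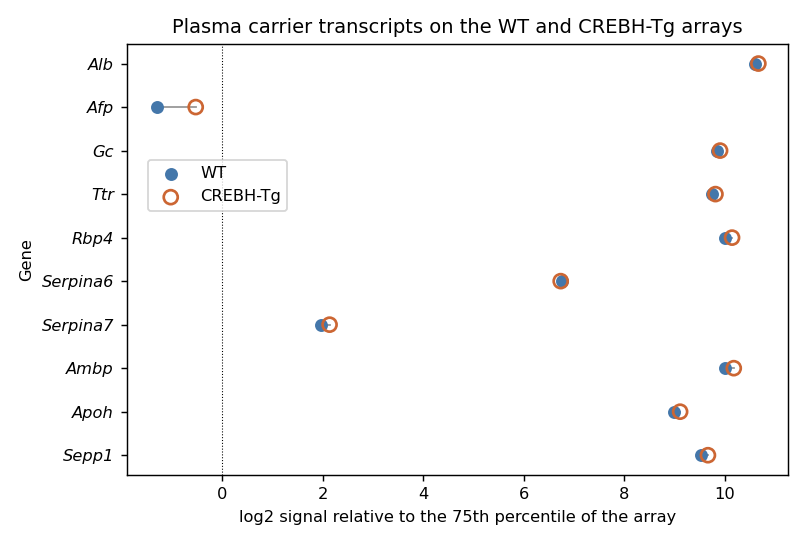
The log2 processed signal of each carrier gene, relative to the 75th percentile of its own array, is drawn on the x axis for WT (filled) and CREBH-Tg (open), with genes on the y axis. The circles overlap or touch for 9 genes and are apart for Afp, at -1.31 in WT and -0.53 in CREBH-Tg; distances between different genes cannot be read as levels, since probes differ.

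Throughout, a signal is the log2 of the processed spot intensity relative to the 75th percentile of its array, and a log2 ratio is CREBH-Tg minus WT. The 75th percentile was an intensity of 333 in WT and 309 in CREBH-Tg. The error available is spot noise, measured on 276 probes that are spotted at least 5 times on each array. Its 95% range for the log2 ratio of a single spot was 0.40, 0.17 and 0.095 in the dimmest, middle and brightest of 3 gene classes of like size, split by signal. This range leaves out labelling, hybridisation, pools and animals. Of the carriers, 8 were in the brightest class, Serpina7 in the middle class and Afp in the dimmest. The share of genes apart differed by class. Of 4627 genes in each, 138 of the dimmest, 27 of the middle and 20 of the brightest were 2-fold apart. At 1.5-fold either way, these counts were 447, 100 and 84. The median log2 ratio over the 4627 genes of the brightest class was 0.05, so bright genes as a whole lay slightly above 0.

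The tissue label was checked against markers. All 10 hepatocyte markers were measured on both arrays, with a median log2 ratio of -0.01 and a range of -0.21 (Ass1) to 0.35 (Apoa1), and their summed level was 3388 in WT and 3515 in CREBH-Tg, in multiples of the 75th percentile. Marker medians were -0.07 for 7 of 8 Kupffer cell genes, 0.22 for 8 of 8 stellate cell genes and 0.07 for 8 of 8 endothelial genes. They were -0.10 for 6 of 7 cholangiocyte genes, 0.14 for 7 of 8 lymphocyte genes and -0.23 for 4 of 5 erythroid genes. The part of these shifts in the carrier values was not tested.

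Alb, Afp and Gc belong to the albumin family, with Afm (afamin, a vitamin E binding protein) as the fourth relative listed. Alb encodes albumin, which carries fatty acids, bilirubin and many drugs, and accounts for much of the protein in plasma. Its probe read an intensity of 513076 in WT and 501865 in CREBH-Tg, which scaled to signals of 10.59 and 10.67. The log2 ratio of 0.08 was within spot noise. Gc encodes the vitamin D binding protein, which also binds actin released from damaged cells. Its brighter probe read 9.84 in WT and 9.90 in CREBH-Tg, a log2 ratio of 0.06, and its other probe gave 8.91 and 8.99, a log2 ratio of 0.08. Both Gc probes were within spot noise of equality. Afm, measured at 6.62 in WT and 6.64 in CREBH-Tg, had a log2 ratio of 0.02. The 3 listed family members other than Afp were thus near equal on the arrays.

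Afp encodes alpha-fetoprotein, the main albumin-like protein of fetal plasma, whose gene is shut down in the liver after birth and is expressed again in regeneration and in liver cancer. Its probe is spotted 10 times on each array, which makes it the best repeated of the carriers. In WT the 10 intensities ran from 122 through a median of 137 to 142, and in CREBH-Tg from 203 through 213 to 231. All 10 CREBH-Tg spots were brighter than all 10 WT spots, without overlap. The mean signal was -1.31 ± 0.08 in WT and -0.53 ± 0.06 in CREBH-Tg (SD over 10 spots). Spot by spot, the log2 ratio ran from 0.66 to 0.94 with a mean of 0.78 ± 0.09 (SD over 10 spots). These spots read the same labelled RNA, so their spread says nothing about animals or pools.

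**Figure D2:**
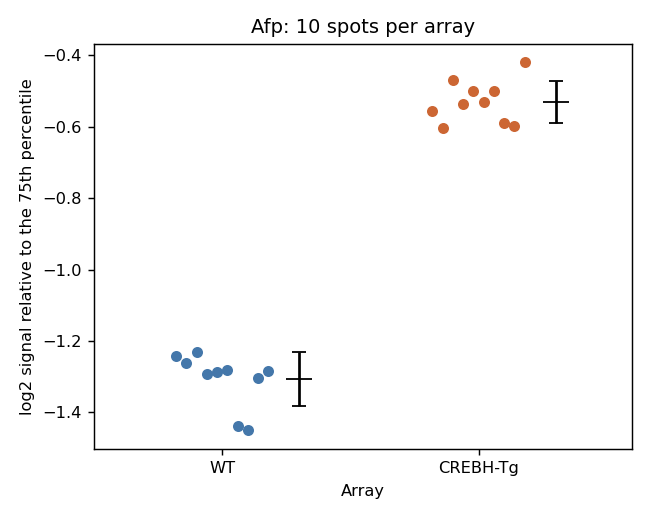
Each point is 1 of 10 Afp spots, by array on the x axis, with the log2 signal relative to the 75th percentile on the y axis; the bar is the mean with its SD over spots, and the sideways spread of points is for display. The WT spots lie between -1.45 and -1.23 and the CREBH-Tg spots between -0.60 and -0.42.

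The Afp signal was low but above background. Each of the 10 spots passed as well above background on either array, and the raw median signals averaged 178 in WT and 255 in CREBH-Tg, against local backgrounds of 53.7 and 52.5. The log2 ratio of 0.78 lay beyond the single-spot 95% range of 0.40 in its class. A ratio at least this high was seen in 175 of the 13881 genes, of which 108 were among the 4627 genes of the dimmest class. Over the 10 ways of processing, Afp stayed between 1.52-fold (normexp background correction) and 1.82-fold (scaling to the median).

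Alb, Afp and Afm are consecutive protein-coding genes on chromosome 5, in that order, so the gene with the higher ratio had near-equal neighbours on both sides. Ankrd17, before Alb, was at a log2 ratio of -0.13, and Albfm1, after Afm, at 0.18. The 250 bases before the annotated start of Alb, Afp and Gc are shown because these relatives differed in ratio. They are from RefSeq on GRCm38.p6, at chr5:90460620-90460869 (plus strand) for Alb, chr5:90490464-90490713 (plus strand) for Afp and chr5:89457899-89458148 (minus strand) for Gc. Capitals mark TATAAA, the TATA box, and CCAAT, the core of the CCAAT box, which reads ATTGG where it lies on the opposite strand.
Alb: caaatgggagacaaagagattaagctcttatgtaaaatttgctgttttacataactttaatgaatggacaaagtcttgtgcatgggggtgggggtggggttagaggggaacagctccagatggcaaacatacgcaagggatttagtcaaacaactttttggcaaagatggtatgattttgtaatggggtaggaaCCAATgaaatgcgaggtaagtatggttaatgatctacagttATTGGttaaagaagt
Afp: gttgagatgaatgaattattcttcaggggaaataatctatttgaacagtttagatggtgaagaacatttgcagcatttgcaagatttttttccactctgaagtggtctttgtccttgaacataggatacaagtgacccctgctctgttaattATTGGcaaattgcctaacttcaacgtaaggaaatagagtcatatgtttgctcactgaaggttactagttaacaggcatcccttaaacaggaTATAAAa
Gc: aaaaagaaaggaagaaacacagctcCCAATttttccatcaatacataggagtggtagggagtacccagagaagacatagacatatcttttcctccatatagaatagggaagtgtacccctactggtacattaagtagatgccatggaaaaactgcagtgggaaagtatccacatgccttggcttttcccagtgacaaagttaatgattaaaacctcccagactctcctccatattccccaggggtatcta
TATAAA occurred in the Afp window alone of these 3, beginning 7 bases before the annotated start, and on either strand in 12.4% of all 32851 promoter windows of that length. CCAAT was in all 3 and in 33.8% of all windows. Neither TGACG, the short form of the cAMP response element, nor its full form TGACGTCA was in these 3 windows, and they were in 17.8% and 1.55% of all windows. TGACG is part of TGACGTCA, so a match to the latter counts for both. Windows were found for 8 of the 10 carriers, not for Ttr and Serpina6. Of the 8, 5 held CCAAT and 4 held TATAAA in at least 1 window, while 2 held TGACG (Rbp4 and Sepp1) and none held TGACGTCA. The 8 carriers had 12 windows between them, so these counts by gene cannot be set against the shares of single windows above. A match describes letters only. TATAAA began 28 bases before the annotated start in Rbp4, 27 or 10 in the windows of Serpina7 and 10 in Sepp1. Whether the annotated starts are those used in these livers was not tested, so a window may miss letters just past its end. Whether any match has a part in the ratios was not tested either.

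Factors known to act on the albumin and Afp genes were listed, and 18 of 19 were measured on both arrays, with a median log2 ratio of -0.03 and none 2-fold apart. The signal of the activator Hnf4a was 7.28 in WT and 7.38 in CREBH-Tg, and that of the activator Cebpa 4.647 and 4.604. The lowest ratio of the list was that of Zbtb20, a zinc finger protein known to repress Afp in the adult liver. Zbtb20 read 3.565 in WT and 2.997 in CREBH-Tg on a single spot, a log2 ratio of -0.57, beyond the spot noise range of 0.095. It stayed between -0.61 and -0.48 over the ways of processing. Prox1 was next at -0.24, and the highest were Trp53 at 0.30 and Foxa3 at 0.24. Trp53 was in the dimmest class, and its value was within the spot noise range of 0.40 there. Whether Zbtb20 has a part in the Afp value was not tested.

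Zhx2, another known postnatal repressor of Afp, was below the well-above-background mark on both arrays. Of 8 genes known to be under Zhx2 control, 3 were measured on both arrays: Elovl3 at a log2 ratio of 0.58, Lpl at 0.23 and Cyp2a4 at -0.54. The fetal genes of this list were dim. Gpc3 and 1 probe of Dlk1 were well above background in CREBH-Tg alone. They lay about 1.29-fold and 1.59-fold above the faintest WT probe that still passed, at -4.13. A WT probe can be brighter and fail, as that of Amn did at -4.03, so these are not strict bounds. The other Dlk1 probe was not well above background on either array. Igf2 and Igf2bp3 were below that mark on both. Markers of bile duct and progenitor-type cells lay near or below 0 beside Afp: Krt19 was at 0.03, Sox9 at -0.17 and Spp1 at -0.51, and Epcam was not well above background on either array.

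**Figure D3:**
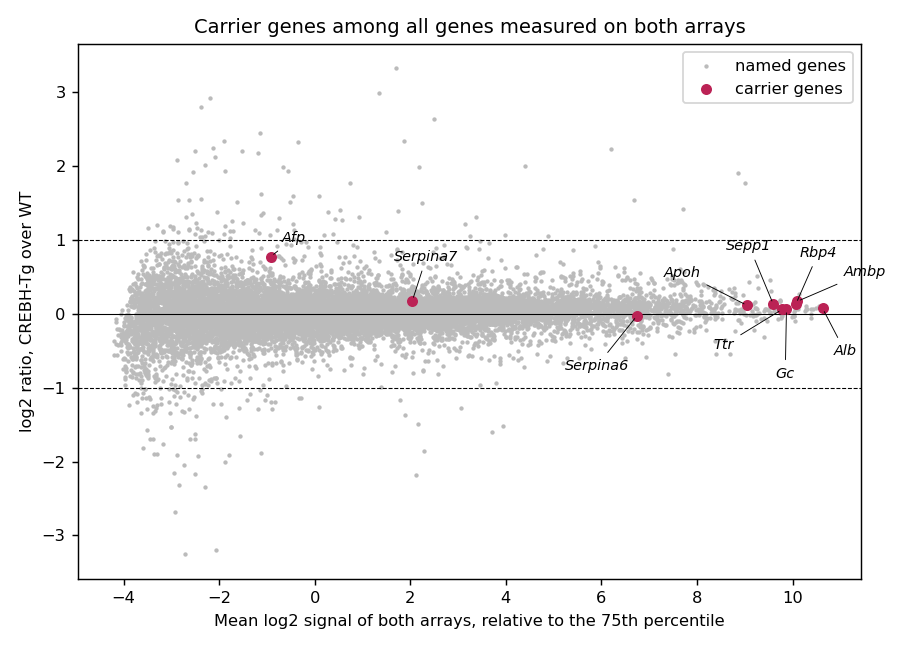
Each grey point is 1 of 13881 named genes, with the mean log2 signal of both arrays on the x axis and the log2 ratio of CREBH-Tg over WT on the y axis; dashed lines mark 2-fold, and carrier genes are in red. Afp lies at 0.78 in the dim, wide part of the cloud, and the brightest carriers lie at its right end between 0.06 and 0.17.

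Ttr and Rbp4 circulate together. Ttr encodes transthyretin, which carries thyroxine and holds the retinol-binding protein in a complex too large for the kidney filter, and Rbp4 encodes that retinol-binding protein. Ttr gave intensities of 286707 in WT and 277638 in CREBH-Tg, or signals of 9.75 and 9.81 after scaling. Its log2 ratio of 0.06 was within spot noise. Rbp4 gave 341484 and 349140, or signals of 10.003 and 10.143, and its log2 ratio of 0.14 was above the spot noise range of 0.095. Set against the median of the brightest class, the Rbp4 value was 0.09 higher and that of Ttr 0.01 higher.

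Genes that take up, store and oxidise retinol lay on both sides of 0, at a median of 0.01 over 20 of 23 measured genes and none 2-fold apart. Aldh1a1, which makes retinoic acid from retinal, was lowest, reading 8.66 in WT and 8.12 in CREBH-Tg (log2 ratio -0.55), and its close relative Aldh1a7 was at -0.27. These near-identical genes can share a probe's signal. Cyp26b1, which breaks down retinoic acid, was highest at 0.64 (0.569 in WT and 1.204 in CREBH-Tg), followed by Bco1, which cleaves carotene, at 0.44. Stra6l, the liver receptor for retinol-binding protein, was at 4.45 and 4.33, a log2 ratio of -0.12. The receptor of other tissues, Stra6, was not well above background on either array.

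Serpina7 and Serpina6 are serpins without known protease targets that carry hormones. Serpina7 encodes thyroxine-binding globulin. It gave intensities of 1289 in WT and 1355 in CREBH-Tg, or signals of 1.95 and 2.13. Its log2 ratio of 0.18 was just outside the spot noise range of its class, 0.17. Serpina6 encodes corticosteroid-binding globulin, the main glucocorticoid carrier. Its brighter probe gave 35977 and 32836, or signals of 6.76 and 6.73, a log2 ratio of -0.02. Its other probe gave 4.35 and 4.43, a log2 ratio of 0.07. The Serpina6 probes thus lay on opposite sides of 0, both within spot noise.

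Among 14 measured genes of thyroid hormone handling (of 16), the median log2 ratio was -0.04 and none was 2-fold apart. Thrsp, a lipogenic gene that responds to thyroid hormone, was lowest at -0.82 (7.80 in WT and 6.98 in CREBH-Tg). Klf9 and Slco1a1 were highest at 0.13 each. Dio1, the liver deiodinase that activates thyroxine, was at -0.11, and the receptor Thrb at -0.09. For glucocorticoid handling, 14 of 15 genes had a median of -0.05. The receptor Nr3c1 was at 0.08 and Hsd11b1, which regenerates active glucocorticoid, at 0.09. Sgk1, a kinase gene induced by glucocorticoids, was highest at 0.67, and Fkbp5, another induced gene, was at 0.12. Per1, induced by glucocorticoids and also a clock gene, was lowest at -0.40, followed by the steroid reductase Akr1d1 at -0.24. Further induced genes of the list were below 0: Dusp1 at -0.20, Tat at -0.08, Tsc22d3 at -0.06 and Zbtb16 at -0.06. All of these but Dusp1 were within spot noise, and they were named after their values were seen. Genes induced by glucocorticoids therefore lay on both sides of 0. With scaling to the median, Tat, Tsc22d3 and Zbtb16 were above 0, at 0.0064, 0.025 and 0.025, so how many lay on each side depends on the setting.

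The serpin A genes near Serpina6 and elsewhere had a median of 0.06 over 14 measured of 17. Serpina3n, an acute phase serpin, was highest at 0.88 (4.33 in WT and 5.21 in CREBH-Tg), and Serpina11 was at 0.32. Serpina12, which encodes vaspin, was lowest at -0.87 and dim, at -2.128 in WT and -2.995 in CREBH-Tg, and was at -0.37 under normexp. Serpina1f was at -0.18. The Serpina1 genes resemble each other so closely, as do the Serpina3 genes, that a probe may read several of them, and single values are uncertain.

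Ambp encodes a precursor that is cut into alpha-1-microglobulin, a small carrier of heme and radicals, and bikunin, a protease inhibitor that joins the inter-alpha-inhibitor heavy chains. It gave intensities of 342545 in WT and 357448 in CREBH-Tg, or signals of 10.01 and 10.18. Its log2 ratio of 0.17 was the highest of the 8 carriers in the brightest class, at 0.12 above the median of that class. Genes of the heavy chain family were also above 0: Itih4 at 0.51, Itih3 at 0.42, Itih1 at 0.21 and Itih2 at 0.09. Membership of this family does not by itself mean that a product joins bikunin. Itih4 read 9.01 in WT and 9.51 in CREBH-Tg, and Itih3 7.37 and 7.79. Over the ways of processing Itih1, Itih2, Itih3 and Itih4 stayed above 0, with Itih2, which was within spot noise, down to 0.0012 under quantile normalization. Itih1, Itih2 and Itih3 have a single probe, so some of these ways could not move them. Of the other genes in this list, Itih5 was at 0.16, Spint2 at 0.05 and the dim Spint1 at -0.37, and the median of 7 measured genes was 0.16. Itih3 and Itih4 are known acute phase proteins.

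Apoh encodes beta-2-glycoprotein I, which binds phospholipid surfaces and lipoproteins. It gave intensities of 169678 in WT and 170538 in CREBH-Tg, or signals of 8.99 and 9.11, a log2 ratio of 0.11. This was outside spot noise by a small margin, and 0.06 above the median of its class.

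Sepp1, now named Selenop, encodes selenoprotein P, which delivers selenium from the liver to other organs. It gave 246219 in WT and 250299 in CREBH-Tg, or signals of 9.53 and 9.66, a log2 ratio of 0.13. Of 28 genes for selenoproteins and their synthesis, 27 were measured, with a median of 0.06. Gpx3, the plasma glutathione peroxidase, was the 1 gene 2-fold apart, at 2.14-fold higher (-1.71 in WT and -0.61 in CREBH-Tg on a single spot). It was dim, and normexp put its log2 ratio at 0.90. The receptor that takes up selenoprotein P, Lrp8, was not well above background on either array.

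**Figure D4:**
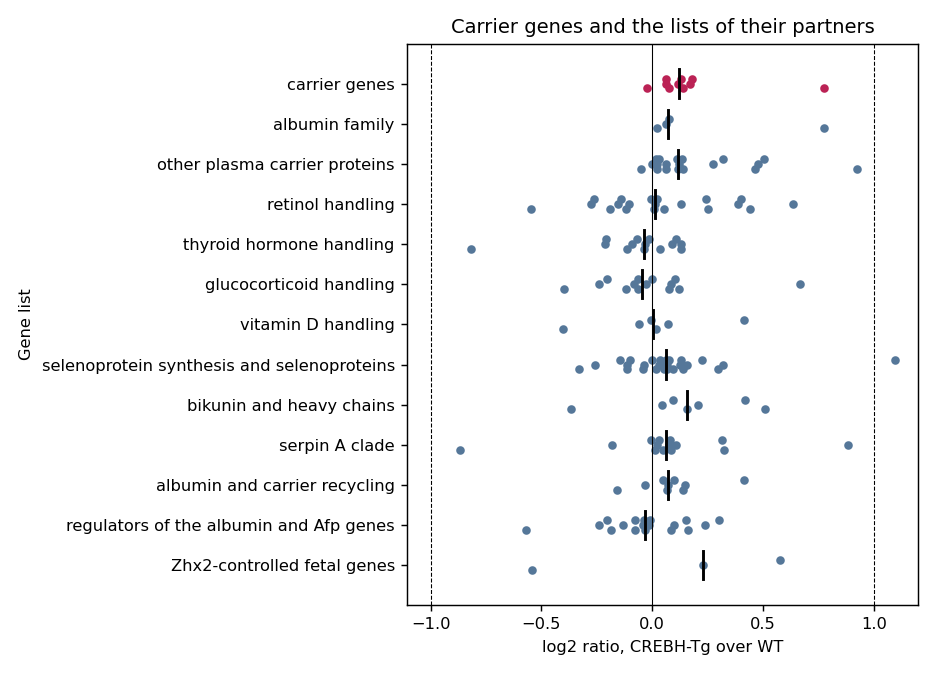
Each point is the log2 ratio (x axis) of a gene measured on both arrays, by list on the y axis; black bars are list medians and dashed lines mark 2-fold. The carrier genes, in red, lie close together apart from Afp, and Gpx3 is the 1 partner beyond a dashed line.

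Other plasma carriers outside the 10 had a median of 0.12 over 19 measured of 20, with 17 above 0 and none 2-fold apart when scaled to the 75th percentile. Igfbp2, which carries insulin-like growth factors, was highest at 0.93 (5.40 in WT and 6.32 in CREBH-Tg), and its other probe was at 1.02. In 2 of the 10 ways of processing Igfbp2 was 2-fold apart, at up to 1.03 with normexp, so the count of none depends on the setting. Orm1, an acute phase carrier of drugs in a family of near-identical genes, was at 0.50. Hpx, which encodes the heme carrier hemopexin, was at 0.46, and Apom, the carrier of sphingosine 1-phosphate, at 0.48; these were named after their values were seen. The lowest were the vitamin E carrier Ttpa at -0.05 and Igfbp1 at -0.0030. Trf, transferrin, was at 0.11 and Ahsg, fetuin A, at 0.06, also named after their values were seen.

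Genes that recycle or clear carriers had a median of 0.07 over 9 measured of 11. Fcgrt, whose product saves albumin from breakdown, was at 0.10. The highest were the dim Lrp2 at 0.41, which was at 0.10 under normexp, and Gm2a at 0.15, and the lowest were Lrp1 at -0.16 and Sparc at -0.03. For vitamin D handling, 6 of 10 genes had a median of 0.01, with Lrp2 and Dab2 (0.07) highest and Dhcr7 (-0.40) and Cyp2r1 (-0.06) lowest. Cyp27b1, which makes active vitamin D, was well above background in WT alone and was named after its value was seen. Its WT signal lay about 5.77-fold above the faintest CREBH-Tg probe that still passed, which is not a strict bound.

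Over all lists together, 147 of 170 partner genes outside the 10 were measured. Of these, 0.68% were 2-fold apart, beside 1.33% of all genes. At 1.5-fold, 4.76% were apart either way, 7 genes, beside 4.55% of all genes. The 7 were Gpx3, Igfbp2, Serpina3n, Sgk1 and Cyp26b1 on the higher side and Thrsp and Serpina12 on the lower. The share near that of all genes gives no result about the partners as a group.

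The 7 carriers as bright as Apoh or brighter (Alb, Gc, Ttr, Rbp4, Ambp, Apoh and Sepp1) lay between log2 ratios of 0.06 and 0.17. By mean signal over both arrays, 81 named genes were at or above Apoh; their median was 0.06, their range -0.31 to 0.51, and 0 were 1.5-fold apart. Of the 78 genes at or above Apoh on each array, 0 were 1.5-fold apart as well. Counting a gene that reached Apoh on at least 1 array gave 84, of which 2 were 1.5-fold apart, Saa1 at 1.77 and Saa2 at 1.91, genes of the acute phase protein serum amyloid A. Both passed through CREBH-Tg alone, where they were higher, so that count is not independent of the difference. Saa1 read 8.11 in WT and 9.88 in CREBH-Tg; the pair is alike enough to share probe signal and was named after its values were seen. No spot was marked saturated: the raw median signal of Alb was 471985 in WT and 465186 in CREBH-Tg, below the saturation value of 778484 in the file headers. Among the 478 genes at or above Serpina6 by mean signal, 6 were 1.5-fold apart and 3 were 2-fold apart, beside 10 and 5 of the 512 that reached it on at least 1 array. These ways of counting were chosen after the values were seen. Whether the brightest probes understate differences was not tested.

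The small positive ratios of the bright carriers moved with the scaling. With loess or quantile normalization, which take out a trend of ratio with signal, Alb was at -0.03 and -0.02, and 6 and 7 of the 10 carriers were above 0. With scaling to the median all 10 were above 0. Afp, Rbp4, Ambp, Serpina7, Apoh and Sepp1 were above 0 under all 10 ways of processing, and Serpina6 under 2 of them. Not all of these ways can move a value. A carrier with a single probe keeps its value under the mean over probes and the other filters. The authors' table differs by a constant factor per array, which the scaling removes. Agreement under those ways was therefore fixed in advance.

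**Figure D5:**
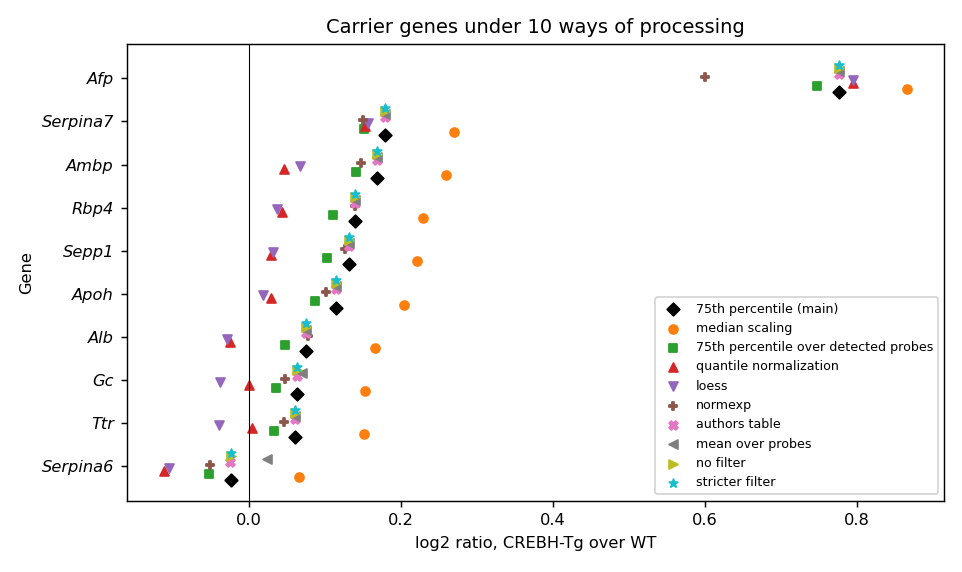
The log2 ratio of CREBH-Tg over WT (x axis) is drawn for each carrier gene (y axis) under 10 ways of processing, with black diamonds for scaling to the 75th percentile. Afp lies between 0.60 and 0.87 under all of them, and the other carriers lie between -0.11 and 0.27. For a gene with a single probe, some of these ways give the same value by construction.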

How the data were processed

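Total liver RNA of 1 WT pool and 1 CREBH-Tg pool was hybridised, as Cy3-labelled cRNA, to 1-colour Agilent arrays, per the labels' protocols. Agilent Feature Extraction 10.10.1.1 gave the spot intensities, background-subtracted and detrended within each array, per the file headers. The authors' deposited value table is this intensity multiplied by 2.59 in the WT column and by 2.68 in the CREBH-Tg column, by a rule not given in the sources used here; its columns have medians of 89.8 and 81.0.

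Here the log2 of the processed intensity was taken and the 75th percentile of non-control spots subtracted, without 300 spots marked as outliers on either array. Well above background were 55.4% of spots in WT and 58.3% in CREBH-Tg. Spots of a probe were averaged. A probe was measured when more than 50% of its spots passed that mark, and a gene took its brightest probe measured on both arrays. Transcript accessions named 27233 of 55677 probes through a RefSeq table (GRCm38.p6, names and gene order only). Partner genes named are those 2-fold apart, otherwise the 2 highest and 2 lowest of a list, and fixed direct partners. Some genes that this rule names are not reported here. Members and lists were chosen with earlier results of these data known. No test was possible with 1 array per group, and the number of arrays limits precision. The steps were tested on simulated data. Alternatives were other scalings, normexp (offset 50), the authors' table, the mean over probes, other filters on dim probes, and 1.5-fold and 3-fold thresholds. Tools were limma 3.58.1 in R 4.3.3, and pandas 2.3.3, numpy 2.4.6, matplotlib 3.10.9 and statsmodels 0.14.6 in Python 3.11.15.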

Additional observations from a re-analysis of the deposited data

How the results depend on the processing

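No paired analysis was possible because each genotype has 1 array. Of the alternatives tried, those that moved a carrier value beyond its spot noise were loess and quantile normalization. Loess put the median of the 10 carriers at 0.025, and Alb at -0.029, Ttr at -0.039, Gc at -0.038, Rbp4 at 0.037, Ambp at 0.067, Apoh at 0.019 and Sepp1 at 0.032. It put the medians of the albumin family at -0.033 and of the serpin A clade at -0.039. Quantile normalization put Alb at -0.024, Rbp4 at 0.044, Ambp at 0.046 and Sepp1 at 0.029. Both fit the trend of ratio with signal by construction. With a threshold of 1.5-fold, 1 carrier (Afp) was higher.

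Over all genes, 92 were at least 2-fold higher and 93 lower. These counts were 42 and 16 under normexp, 605 and 782 with no filter on dim probes, 45 and 21 with the stricter filter, 321 and 310 at 1.5-fold, and 30 and 26 at 3-fold. Of the 2-fold differences, 49.7% were higher, and this was 59.9% with scaling to the median, which adds 0.090 to every log2 ratio. The other 226 recomputed values stayed within spot noise of the reported value or, for counts, within 1.5 times of it. Some of them could not move, since a carrier with a single probe keeps its value under the mean over probes and the other filters. Spots repeated within an array give the only error, and for 9 of the 10 carriers the value rests on 1 spot per array and probe.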
